A study of Arabidopsis thaliana with 9 samples.

Results

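The plastid-encoded genes of Arabidopsis thaliana were taken as all rows of the deposited expression table whose locus identifier starts with ATCG, the prefix of the plastid chromosome, that reached 1 FPKM in 3 or more of the 9 libraries. FPKM is the number of sequenced fragments per kilobase of transcript, scaled to the size of the library. Of 88 plastid rows, 80 met this rule, out of 17662 genes of the whole table that did. The libraries came from whole light-grown seedlings, 5 days old, raised at 22 °C with 16 h light and 8 h dark after 4 days at 4 °C. MIR394A OE seedlings overexpress the microRNA gene MIR394A, the Brz seedlings are wild-type Col-0 grown on medium with 2 µM Brz (brassinazole, an inhibitor of brassinosteroid synthesis), and the Col-0 seedlings are untreated wild type, with 3 libraries in each group. Only the titles set the groups apart, since the treatment text is the same for all 9 libraries, and Col-0 is called untreated because its titles name no treatment. The study asked how miR394 acts on brassinosteroid signalling and hypocotyl growth. The sources used here do not give the promoter behind MIR394A OE or the number of plants per library, and the microRNA itself was not analysed here. Nothing in the labels says that the replicates were grown separately, so they may be technical repeats. A p-value sets a difference against the spread within groups, pooled over the 3 groups.

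The plastid chromosome holds a small set of genes left from the cyanobacterial ancestor. They encode core subunits of photosystem I and II, the cytochrome b6f complex, the ATP synthase, the NADH dehydrogenase-like (NDH) complex, the large subunit of Rubisco, and ribosomal proteins and RNA polymerase subunits that serve plastid gene expression, while most partner subunits are encoded in the nucleus and imported. Transcription is shared by the plastid-encoded polymerase, whose core is made by the rpo genes and which needs nuclear sigma factors, and by nuclear-encoded phage-type polymerases. Most plastid genes are transcribed in clusters and cut into smaller RNAs, and most plastid mRNAs lack a stable poly(A) tail. Levels in mRNA libraries, as the labels call these, therefore need not follow the abundance of the RNAs in the plastid. In bulk seedlings, fewer plastid-bearing cells and less plastid RNA per cell cannot be told apart.

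The table gives locus identifiers without gene names. Names follow the standard numbering of the Arabidopsis plastid loci, which gave a name to 86 of the 88 rows. Notes in the RefSeq annotation at hand describe 6 of them, 1 of which, for the locus called ndhK here, gives photosystem II protein G, from the older name psbG of that gene. The coding length of the named gene was the best of 72 candidate lengths for 35 of 36 loci that could be checked from the steps between FPKM values. The settings of that check were chosen after 8 had been compared, and the share of loci that passed ran from 72.1% to 97.2% over them, so the names of the other loci rest on the numbering alone. These include psbM, psbI, psaJ, rpl32, rbcL, ndhD, atpA, psbC, psbD, atpB and atpE, which the check could not cover. Read estimates for them use the coding length of the name. The checked locus that did not pass was a row of rps12.

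The coding sequences of 4 short genes that were among those with the largest difference between Brz-treated and untreated seedlings are shown because their length bears on how the difference is read, as described further on. They were taken from the plastid chromosome of RefSeq assembly TAIR10.1, which need not be the build behind the table, and capitals mark the start and stop codons.
psbM: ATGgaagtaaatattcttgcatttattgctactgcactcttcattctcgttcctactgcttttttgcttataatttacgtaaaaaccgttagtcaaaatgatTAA
psbI: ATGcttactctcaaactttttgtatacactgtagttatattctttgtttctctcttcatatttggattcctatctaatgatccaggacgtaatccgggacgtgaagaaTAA
psaJ: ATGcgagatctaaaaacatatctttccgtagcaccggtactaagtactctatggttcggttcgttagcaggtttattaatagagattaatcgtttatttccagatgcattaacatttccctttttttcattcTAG
rpl32: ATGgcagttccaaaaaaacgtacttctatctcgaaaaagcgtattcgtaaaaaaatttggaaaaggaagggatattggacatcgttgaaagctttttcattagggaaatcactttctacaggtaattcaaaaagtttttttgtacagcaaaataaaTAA

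The psbM sequence lies at plastid positions 28707 to 28811 on the minus strand and encodes 34 amino acids. The psbI sequence lies at 7583 to 7693 on the plus strand and encodes 36. The psaJ sequence lies at 66929 to 67063 on the plus strand and encodes 44. These are single-span membrane subunits of photosystem II (psbM, psbI) and photosystem I (psaJ). The rpl32 sequence, for a protein of the large ribosomal subunit, lies at 113449 to 113607 on the plus strand and encodes 52 amino acids. All 4 are AT-rich, with 30.5% G and C in psbM and 34.8% in psaJ. Each is uninterrupted in the annotation.

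The genes psbC and psbD are shown by the 53 bases they share, since both were lower in Brz-treated seedlings. The reading frame of psbC, for the CP43 antenna protein of photosystem II, starts inside psbD, for the D2 reaction-centre protein. Their overlap covers plastid positions 33720 to 33772 on the plus strand. Capitals mark the first codon of psbC and the stop codon of psbD.
psbD-psbC overlap: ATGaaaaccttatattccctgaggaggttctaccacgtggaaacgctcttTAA

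Sequencing depth, estimated from the FPKM steps, was 21.66 to 21.86 M reads per library. FPKM summed to 736081 to 764335 in MIR394A OE, to 801986 to 861647 in Brz-treated seedlings and to 743229 to 752437 in Col-0. In the Brz-treated libraries FPKM also varied with gene length. Over 17530 nuclear genes, Spearman's rho between transcript length and the log2 fold change against Col-0 was -0.67. Per library, rho between length and the deviation from the Col-0 mean was -0.55, -0.66 and -0.69 in Brz-treated replicates 1 to 3. It was 0.081, 0.020 and -0.34 in MIR394A OE replicates 1 to 3, and -0.13, -0.027 and 0.10 in Col-0 replicates 1 to 3. MIR394A OE replicate 3 thus varied with length in the same direction. In comparisons with these libraries, counts over all members are therefore given as deposited and with a per-library length trend, fitted on nuclear genes, taken out. So are some counts of mitochondrial and nuclear rows. Counts by plastid class and for the other nuclear lists are as deposited only. Brz-treated replicate 1 lay closer to the other groups than Brz-treated replicates 2 and 3 did. Summed FPKM of 3 shoot marker genes was 24447 to 28257 in MIR394A OE, 25081 to 32437 in Brz-treated seedlings and 25374 to 28714 in Col-0, and that of 3 root marker genes was 1940 to 2473, 1453 to 1952 and 1569 to 2091 in the same order of groups. The markers of a type did not move together. CAB2 averaged 12137 FPKM in Brz-treated seedlings and 5444 in Col-0, while RBCS1A averaged 14800 and 18178, and CA1 2914 and 3898. Of the root markers, EXPA7 averaged 13.0 FPKM in Brz-treated seedlings and 9.32 in Col-0, PYK10 1612.5 and 1799.4, and COBL9 2.78 and 3.13. Both marker types were thus present in every library, and their part in the plastid values was not tested.

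Plastid rows held a larger share of the summed FPKM in the Brz-treated libraries. The share was 1.68%, 1.94% and 2.48% in MIR394A OE replicates 1 to 3, 2.36%, 4.16% and 4.44% in Brz-treated replicates 1 to 3, and 1.89%, 1.87% and 1.91% in Col-0 replicates 1 to 3. The means were 2.03 ± 0.41% in MIR394A OE, 3.65 ± 1.13% in Brz-treated seedlings and 1.89 ± 0.02% in Col-0 (SD, n = 3 each). All Brz-treated libraries were above all Col-0 libraries, but Brz-treated replicate 1 was below MIR394A OE replicate 3.

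**Figure D1:**
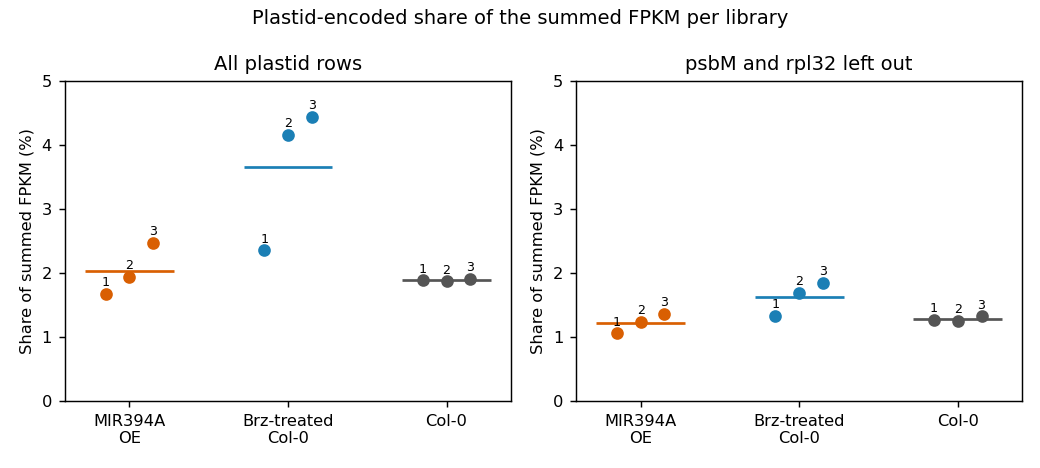
Share of the summed FPKM (%) held by plastid-encoded rows in each library, with all rows (left) and with psbM and rpl32 left out (right). Points are libraries with their replicate number and lines are group means; Brz-treated replicates 2 and 3 stand at 4.16% and 4.44% on the left and at 1.69% and 1.85% on the right.

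A few transcripts made up most of this share. The genes atpE and atpB (the epsilon and beta subunits of the ATP synthase), psbM and rpl32 together held 74.7 ± 1.3% of the plastid FPKM in MIR394A OE, 82.0 ± 4.2% in Brz-treated seedlings and 70.6 ± 2.0% in Col-0. Without psbM and rpl32 the plastid share was 1.22 ± 0.15%, 1.63 ± 0.26% and 1.29 ± 0.04% in the same groups. Without all rows under 300 bases it was 1.08 ± 0.12% in MIR394A OE, 1.41 ± 0.20% in Brz-treated seedlings and 1.14 ± 0.03% in Col-0. In summed FPKM, the larger share in Brz-treated seedlings was thus carried mostly by 2 short transcripts. This does not describe reads, since FPKM weighs a read in a short gene more. One read is 0.669 FPKM in psbM and 0.031 FPKM in atpB. Estimated reads per library were 46261 to 77366 for atpB, 3176 to 15844 for psbM and 5456 to 35883 for rpl32.

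Levels differed widely between the genes. In FPKM, which are per length, means over all libraries ran from 0.89 for ndhA, of the NDH complex, to 5002 for rpl32, 4421 for atpE and 4416 for psbM. The gene for the D1 protein of photosystem II, psbA, had a mean of 17.1 FPKM and rbcL, for the Rubisco large subunit, 6.99 FPKM, although both are known for abundant RNAs in leaves. Over 73 members with a placed coding sequence, the mean level had a Spearman correlation of 0.03 with the longest run of A in the gene and the 200 bases after it, which ranged from 3 to 14 bases. Just inside the limit for inclusion were ndhA, with 0.48 to 1.40 FPKM, and ndhB, with 0.61 to 1.80 FPKM. Just outside it were ycf4, for a photosystem I assembly factor, with 0.44 to 1.15 FPKM, and rpoC1, for a polymerase subunit, with 0.25 to 0.73 FPKM.

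**Figure D2:**
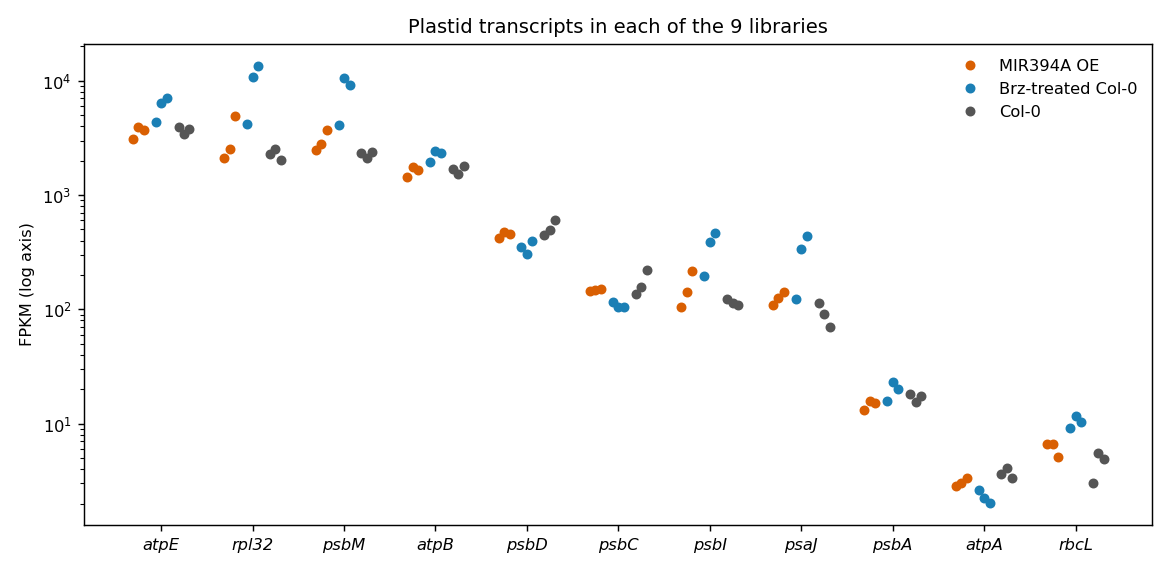
FPKM (log axis) of 11 plastid genes in the MIR394A OE, Brz-treated and Col-0 libraries, each point 1 library. The levels run from 2.02 FPKM for atpA to 13513 FPKM for rpl32, and in psbM, psbI and rpl32 Brz-treated replicate 1 lies below Brz-treated replicates 2 and 3.

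The 8 rows below the limit were rpoC1, ycf4, accD (a subunit of acetyl-CoA carboxylase), both copies of ycf2, the short copy of ycf1, which is listed at 0 in every library, and a pair of rows without a name. Genes of the inverted repeat occur in 2 copies with identical sequence, and the table gives identical values for 5 such pairs (rpl2, rpl23, rps7, ndhB and the shared part of rps12). The 80 members thus hold 75 distinct sets of values.

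In Brz-treated seedlings 26 of the 80 members were higher and 3 lower than in untreated Col-0. Over all tested genes, 13.2% were higher and 28.7% lower, 41.9% in all (limma on log2(FPKM + 1), adjusted p under 0.05). The members' median log2 fold change was 0.24, against -0.22 over all genes. With the length trend taken out, 11 members were higher and 15 lower, against 13.3% and 10.6% of all genes (23.9% in all), and the members' median was -0.12. The share of members called higher was then near that of all genes. With median-ratio scaling, which moves the median over all genes to -0.01, 31 were higher and 1 lower, against 23.7% and 21.4% of all genes (45.1% in all), and the members' median was 0.48. The count of members as deposited, 29 in all, fell to 9 when Brz-treated replicate 3 was left out, to 14 when Brz-treated replicate 2 was and to 16 when Col-0 replicate 1 was. Over all single libraries left out it ran from 9 to 36. Once the length trend was removed the count was 26, and it was 14 on leaving out either Brz-treated replicate 2 or replicate 3 and 17 on leaving out Col-0 replicate 2. The direction of the members as a set therefore depended on the treatment of length, and the groups did not overlap for 35 members, against 50.1% of all genes.

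Called under all 3 treatments of the values were 7 members that were higher (psbM, psbI, psaJ, rpl32, rbcL, ccsA and ndhD) and 1 that was lower (atpA). Over all genes these shares were 7.98% higher and 6.7% lower. The share of members called higher was thus near that of all genes, and the share called lower was below it. The members psbC and psbD were lower as deposited and with the length trend taken out, and not called with median-ratio scaling.

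**Figure D3:**
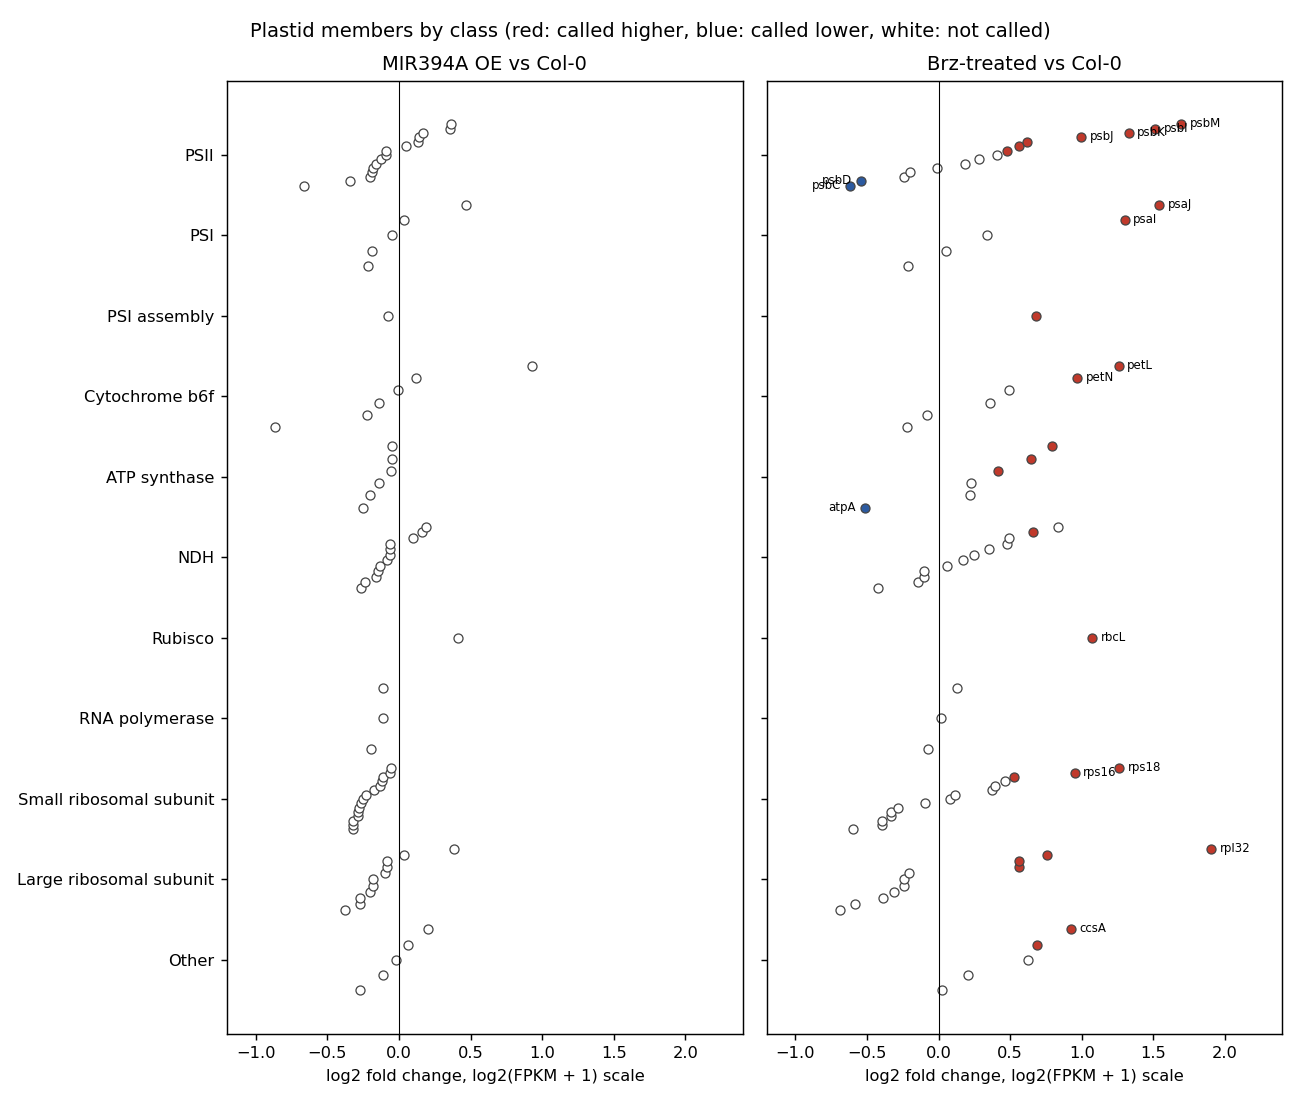
Log2 fold change, on the log2(FPKM + 1) scale, of the 80 plastid members by class in MIR394A OE against Col-0 (left) and in Brz-treated against untreated Col-0 (right), each point 1 member. Red points were called higher and blue points lower; there are 0 on the left, and 26 red and 3 blue on the right.

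Counts by class, and that of the nuclear Rubisco genes, are as deposited and stand beside 13.2% higher and 28.7% lower over all genes. The classes hold few genes, so such a count is no test of a class. In photosystem II, 7 of 15 members were higher and 2 lower in Brz-treated seedlings. The small subunit psbM measured 2462, 2787 and 3694 FPKM in MIR394A OE, 4080, 10648 and 9229 FPKM in Brz-treated seedlings, and 2348, 2124 and 2375 FPKM in Col-0. Every Brz-treated library was above every other library, with replicates 2 and 3 far above replicate 1. For psbM, Brz-treated over Col-0 came to 1.69 ± 0.28 on the log2 scale (± SE throughout, adjusted p = 0.0013), and 1.32 (adjusted p = 0.0064) with the length trend taken out.

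Another small subunit, psbI, measured 106, 141 and 216 FPKM in MIR394A OE, 194, 390 and 468 FPKM in Brz-treated seedlings, and 124, 113 and 109 FPKM in Col-0. The Brz-treated and Col-0 libraries did not overlap, while MIR394A OE replicate 3 was above Brz-treated replicate 1. Its log2 fold change against Col-0 was 1.51 ± 0.30 (adjusted p = 0.0028), and 1.12 with the length trend taken out. The neighbouring psbK, 380 bases away on the same strand, was also higher as deposited (1.33 ± 0.35), but not with the length trend taken out (0.80, adjusted p = 0.070), nor on leaving out Brz-treated replicate 2 or 3 (adjusted p = 0.055 and 0.054).

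The small subunit psbJ measured 22.8, 28.7 and 34.0 FPKM in MIR394A OE, 37.6, 71.9 and 83.3 FPKM in Brz-treated seedlings, and 30.7, 26.5 and 33.3 FPKM in Col-0. Brz-treated libraries lay above all others. The difference in psbJ was 1.0 ± 0.25 on the log2 scale (adjusted p = 0.0093), and 0.58 (adjusted p = 0.053) with the length trend taken out. Also higher as deposited were psbL, psbE and psbB, by 0.48 to 0.62, and none of these was called with the length trend taken out. Leaving out Brz-treated replicate 3 or Col-0 replicate 3 ended the calls of all 3 (adjusted p of 0.062 to 0.14), as did Brz-treated replicate 2 for psbL (0.15) and psbB (0.19), Col-0 replicate 1 for psbE (0.053) and psbB (0.15), and Col-0 replicate 2 for psbB (0.090). psbB encodes the CP47 antenna protein, psbE a subunit of cytochrome b559.

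The reaction-centre gene psbD measured 420, 471 and 457 FPKM in MIR394A OE, 348, 308 and 400 FPKM in Brz-treated seedlings, and 446, 493 and 603 FPKM in Col-0. Its overlapping neighbour psbC measured 145, 148 and 150 FPKM in MIR394A OE, 116, 105 and 105 FPKM in Brz-treated seedlings, and 136, 158 and 220 FPKM in Col-0. For both genes all Brz-treated libraries were below all others. Reads in the 53 shared bases can count for either gene.

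The log2 fold change against Col-0 was -0.54 ± 0.14 for psbD (adjusted p = 0.0099) and -0.62 ± 0.16 for psbC (adjusted p = 0.0095). Without the length trend the values were -0.76 (adjusted p = 0.012) and -0.59 (adjusted p = 0.041), and with median-ratio scaling -0.28 (adjusted p = 0.27) and -0.36 (adjusted p = 0.17), in the same order of genes. Without Brz-treated replicate 2 psbD stood at -0.45 (adjusted p = 0.055). These genes and atpA were picked out after their values were seen. The D1 gene psbA measured 13.3, 15.7 and 15.02 FPKM in MIR394A OE, 15.7, 23.06 and 20.3 FPKM in Brz-treated seedlings, and 18.3, 15.5 and 17.4 FPKM in Col-0, with overlapping groups, and was not called.

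In photosystem I, 2 of 5 members were higher and 0 lower. The small subunit psaJ measured 109, 125 and 142 FPKM in MIR394A OE, 122, 340 and 435 FPKM in Brz-treated seedlings, and 113, 91.2 and 70.1 FPKM in Col-0. Brz-treated replicate 1 was only just above the highest Col-0 library and inside the MIR394A OE range. The log2 fold change against Col-0 was 1.54 ± 0.36 (adjusted p = 0.0063), and 1.09 (adjusted p = 0.027) with the length trend taken out.

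The other small subunit, psaI, measured 2.95, 3.55 and 7.12 FPKM in MIR394A OE, 5.91, 14.9 and 20.9 FPKM in Brz-treated seedlings, and 3.55, 5.91 and 4.13 FPKM in Col-0. Brz-treated replicate 1 equalled the highest Col-0 library. It was called as deposited (1.30 ± 0.38, adjusted p = 0.018) and stood at 0.90 (adjusted p = 0.051) with the length trend taken out. Leaving out Brz-treated replicate 2 (adjusted p = 0.073) or 3 (0.084) or Col-0 replicate 1 (0.054) ended the call of psaI. The genes psaA and psaB, for the reaction-centre core, had means of 1.23 and 1.86 FPKM over all libraries and log2 fold changes of 0.05 and -0.21, neither called. The assembly factor gene ycf3 measured 4.79, 4.27 and 5.60 FPKM in MIR394A OE, 6.65, 8.83 and 11.8 FPKM in Brz-treated seedlings, and 5.85, 4.66 and 5.05 FPKM in Col-0. Its groups did not overlap, and its log2 fold change of 0.68 ± 0.20 (adjusted p = 0.018) became 0.075 (adjusted p = 0.73) with the length trend taken out. The call of ycf3 also ended without Brz-treated replicate 2 (adjusted p = 0.057) or 3 (0.092) or Col-0 replicate 2 (0.059).

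Of the 6 cytochrome b6f members, 2 small subunits were higher in Brz-treated seedlings and 0 lower. The gene petN measured 4.28, 12.02 and 12.9 FPKM in MIR394A OE, 14.6, 23.3 and 24.2 FPKM in Brz-treated seedlings, and 7.70, 11.99 and 10.3 FPKM in Col-0. Brz-treated libraries were above all others, with a log2 fold change of 0.97 ± 0.33 (adjusted p = 0.035). It was not called with the length trend taken out (0.62, adjusted p = 0.14), nor on leaving out Brz-treated replicate 2 or 3 (adjusted p of 0.12 each) or Col-0 replicate 1 (0.11).

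The other, petL, is counted by 1 to 11 reads per library. It measured 3.85, 4.63 and 5.41 FPKM in MIR394A OE, 4.62, 5.42 and 8.53 FPKM in Brz-treated seedlings, and 0.77, 1.54 and 4.61 FPKM in Col-0. Its log2 fold change in Brz-treated seedlings was 1.26 ± 0.35 (adjusted p = 0.014), and 0.90 (adjusted p = 0.091) with the length trend taken out. Brz-treated replicate 1 and Col-0 replicate 3 were almost level, and leaving out Brz-treated replicate 3 (adjusted p = 0.065) or Col-0 replicate 1 (0.054) ended the call. The larger subunits petA, petB and petD were not called.

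The ATP synthase genes went in different directions, 3 of 6 higher and 1 lower. The gene atpE measured 3121, 3958 and 3729 FPKM in MIR394A OE, 4385, 6414 and 6999 FPKM in Brz-treated seedlings, and 3973, 3391 and 3819 FPKM in Col-0. Its upstream neighbour atpB, which overlaps it by 4 bases, measured 1451, 1759 and 1647 FPKM in MIR394A OE, 1954, 2442 and 2317 FPKM in Brz-treated seedlings, and 1683, 1528 and 1812 FPKM in Col-0. Both were above all other libraries in every Brz-treated library.

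Their log2 fold changes were 0.65 ± 0.17 for atpE (adjusted p = 0.0099) and 0.42 ± 0.13 for atpB (adjusted p = 0.020). Corrected for the length trend they stood at 0.0086 (adjusted p = 0.98) and 0.50 (adjusted p = 0.080). The call of atpE ended without Brz-treated replicate 3 (adjusted p = 0.051), and that of atpB without Brz-treated replicate 2 (0.092) or 3 (0.075) or Col-0 replicate 1 (0.050004) or 2 (0.074). The membrane subunit gene atpI measured 16.8, 19.5 and 23.4 FPKM in MIR394A OE, 26.7, 32.7 and 53.8 FPKM in Brz-treated seedlings, and 20.5, 21.5 and 19.4 FPKM in Col-0, again with no overlap. Its log2 fold change was 0.79 ± 0.22 (adjusted p = 0.014), and 0.35 (adjusted p = 0.18) with the length trend taken out, and without Brz-treated replicate 3 it was 0.51 (adjusted p = 0.060).

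The alpha subunit gene atpA lies in the same cluster as atpI and was lower. It measured 2.83, 3.03 and 3.37 FPKM in MIR394A OE, 2.62, 2.23 and 2.02 FPKM in Brz-treated seedlings, and 3.63, 4.13 and 3.35 FPKM in Col-0. Brz-treated libraries lay below all others. The log2 fold change was -0.52 ± 0.16 (adjusted p = 0.022), with -0.42 (adjusted p = 0.019) without the length trend and -0.33 (adjusted p = 0.036) with median-ratio scaling. The adjusted p passed 0.05 without Brz-treated replicate 2 (0.069) or 3 (0.089) and without Col-0 replicate 1 (0.059) or 2 (0.085), and was 0.052 with the replicate number as a block. The genes atpF and atpH between them both stood at 0.22 and were not called (-0.36 and -0.37 with the length trend taken out).

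In the NDH complex, which carries electrons around photosystem I, 1 of 12 members was higher and 0 lower. The most abundant, ndhK, measured 305, 300 and 423 FPKM in MIR394A OE, 451, 421 and 508 FPKM in Brz-treated seedlings, and 343, 397 and 338 FPKM in Col-0. Brz-treated and Col-0 libraries did not overlap, but its log2 fold change of 0.36 ± 0.15 missed the threshold (adjusted p = 0.072). Its neighbours ndhJ and ndhC stood at 0.25 (adjusted p = 0.22) and 0.056. The calls of these 3 genes went opposite ways with the treatment of the values. Corrected for the length trend, ndhJ (-0.37, adjusted p = 0.049) and ndhC (-0.58, adjusted p = 0.039) were called lower, while with median-ratio scaling ndhK (0.62, adjusted p = 0.014) and ndhJ (0.51, adjusted p = 0.033) were called higher.

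The gene that was called, ndhD, measured 1.42, 1.79 and 2.14 FPKM in MIR394A OE, 2.32, 2.76 and 3.76 FPKM in Brz-treated seedlings, and 1.64, 1.30 and 1.48 FPKM in Col-0. Every Brz-treated library was above every other one. The log2 fold change of ndhD was 0.66 ± 0.18 (adjusted p = 0.013), and 0.74 (adjusted p = 0.020) with the length trend taken out. Without Brz-treated replicate 3 it was 0.52 (adjusted p = 0.067).

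Next to it on the chromosome, 217 bases away and on the other strand, is ccsA, for a protein of cytochrome c assembly. It measured 1.54, 1.64 and 2.32 FPKM in MIR394A OE, 2.36, 4.22 and 4.66 FPKM in Brz-treated seedlings, and 1.40, 1.49 and 1.44 FPKM in Col-0. All Brz-treated libraries were highest, although replicate 1 was level with MIR394A OE replicate 3. The log2 fold change was 0.92 ± 0.21 (adjusted p = 0.0051), and 0.65 (adjusted p = 0.033) with the length trend taken out. The genes rpl32, ccsA and ndhD follow each other in the small single-copy region of the chromosome, and all were called under each treatment of the values.

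The Rubisco gene rbcL measured 6.67, 6.70 and 5.14 FPKM in MIR394A OE, 9.17, 11.6 and 10.2 FPKM in Brz-treated seedlings, and 3.03, 5.54 and 4.87 FPKM in Col-0. Brz-treated libraries were above all others, and replicate 1 was close to the other 2, unlike in the small photosystem genes. The log2 fold change was 1.07 ± 0.20 (adjusted p = 0.0023), and 1.12 (adjusted p = 0.0071) with the length trend taken out. Leaving out each library in turn gave 0.87 to 1.21, each with adjusted p of at most 0.015.

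Of 4 nuclear genes for the small subunit of the same enzyme, 0 were called higher and 1 lower in Brz-treated seedlings. RBCS2B averaged 6733 FPKM in Brz-treated seedlings and 9174 FPKM in Col-0 (log2 fold change -0.45 ± 0.15, adjusted p = 0.031). Median-ratio scaling ended this call (-0.19, adjusted p = 0.59), as did the replicate block (adjusted p = 0.069) and leaving out Brz-treated replicate 1 (0.092) or 2 (0.10) or Col-0 replicate 1 (0.065) or 3 (0.086). RBCS1A stood at -0.30 and was not called (adjusted p = 0.078).

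None of the 3 tested RNA polymerase genes was called in Brz-treated seedlings as deposited (rpoA, rpoB and rpoC2 in limma), and 0 had an unadjusted p under 0.05, against 51.2% of all genes. The most abundant, rpoA, measured 8.5, 11.3 and 16.0 FPKM in MIR394A OE, 11.4, 17.2 and 13.5 FPKM in Brz-treated seedlings, and 11.6, 15.4 and 11.1 FPKM in Col-0. The groups overlapped, with a log2 fold change of 0.13.

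The longer genes rpoB and rpoC2 were near the inclusion limit of 1 FPKM, though their length put 56.3 to 122.8 and 59.8 to 133.5 estimated reads per library behind these values. They had 0.81, 0.91 and 1.39 FPKM for rpoB in MIR394A OE, 1.18, 1.29 and 1.13 FPKM in Brz-treated seedlings, and 1.18, 1.77 and 1.06 FPKM in Col-0. For rpoC2 the values were 0.70, 0.67 and 1.5 FPKM in MIR394A OE, 1.05, 0.92 and 1.33 FPKM in Brz-treated seedlings, and 0.93, 1.25 and 1.05 FPKM in Col-0. In both genes all groups overlapped. The fourth subunit gene, rpoC1, did not pass the filter and had 0.37, 0.32 and 0.55 FPKM in MIR394A OE, 0.57, 0.53 and 0.53 FPKM in Brz-treated seedlings, and 0.25, 0.73 and 0.27 FPKM in Col-0. Corrected for the length trend, rpoB (0.64, adjusted p = 0.023) and rpoC2 (0.89, adjusted p = 0.012) were called higher, against -0.075 and 0.014 as deposited.

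Of 15 small-subunit ribosomal members 3 were higher in Brz-treated seedlings and 0 lower. The most abundant, rps19, measured 328, 354 and 495 FPKM in MIR394A OE, 501, 666 and 725 FPKM in Brz-treated seedlings, and 522, 420 and 509 FPKM in Col-0. Brz-treated replicate 1 fell inside the Col-0 range, and the log2 fold change of 0.37 ± 0.18 was not called (adjusted p = 0.11).

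The gene rps18 measured 14.8, 14.99 and 40.6 FPKM in MIR394A OE, 36.7, 65.5 and 101 FPKM in Brz-treated seedlings, and 26.7, 35.0 and 17.8 FPKM in Col-0. Brz-treated replicate 1 was only just above Col-0 replicate 2. The difference in rps18 was 1.26 ± 0.41 on the log2 scale (adjusted p = 0.028), and 0.63 (adjusted p = 0.17) with the length trend taken out. The call ended without Brz-treated replicate 2 (adjusted p = 0.084) or 3 (0.12) or Col-0 replicate 1 (0.050452) or 3 (0.084).

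The gene rps2 measured 4.01, 4.63 and 6.34 FPKM in MIR394A OE, 8.09, 8.75 and 11.2 FPKM in Brz-treated seedlings, and 7.2, 6.18 and 5.09 FPKM in Col-0. Its groups did not overlap, with a log2 fold change of 0.53 ± 0.20 (adjusted p = 0.048), and 0.057 (adjusted p = 0.78) with the length trend taken out. Leaving out any Brz-treated or Col-0 library other than Brz-treated replicate 1 ended the call of rps2, with adjusted p of 0.052 to 0.18. Also higher was rps16, counted by 1 to 14 reads per library, with 0.23, 0.45 and 0.90 FPKM in MIR394A OE, 1.35, 3.17 and 3.18 FPKM in Brz-treated seedlings, and 0.45, 1.35 and 0.67 FPKM in Col-0. Brz-treated replicate 1 was level with Col-0 replicate 2. The difference in rps16, 0.95 ± 0.26 (adjusted p = 0.014), was 0.36 (adjusted p = 0.18) with the length trend taken out, and its call also ended without Brz-treated replicate 2 (0.066) or 3 (0.062) or Col-0 replicate 1 (0.051).

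Of 11 large-subunit members 4 were higher and 0 lower as deposited. The gene rpl32 measured 2095, 2520 and 4965 FPKM in MIR394A OE, 4191, 10870 and 13513 FPKM in Brz-treated seedlings, and 2305, 2519 and 2036 FPKM in Col-0. Brz-treated libraries were all above Col-0, with replicate 1 below MIR394A OE replicate 3. Its log2 fold change of 1.90 ± 0.38 (adjusted p = 0.0031) was the largest of any member, and it was 1.41 (adjusted p = 0.013) with the length trend taken out.

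The genes rpl33 and rps18 lie after psaJ on the same strand, with 424 and 228 bases between neighbours. In rpl33 there were 10.3, 14.2 and 17.1 FPKM in MIR394A OE, 20.1, 23.5 and 34.8 FPKM in Brz-treated seedlings, and 13.6, 15.3 and 15.02 FPKM in Col-0. Brz-treated libraries were above all others (log2 fold change 0.76 ± 0.22, adjusted p = 0.016, and 0.21 with the length trend taken out, adjusted p = 0.34). Without Brz-treated replicate 3 the adjusted p of rpl33 was 0.078.

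Both copies of rpl2 have 335, 344 and 472 FPKM in MIR394A OE, 492, 633 and 666 FPKM in Brz-treated seedlings, and 365, 395 and 445 FPKM in Col-0. These copies stood at 0.56 ± 0.16 (adjusted p = 0.016) without overlap, and at 0.18 (adjusted p = 0.41) with the length trend taken out. Their call ended without Brz-treated replicate 2 (adjusted p = 0.069) or 3 (0.074) or Col-0 replicate 1 (0.057). They count as 2 of the 4 calls although they are 1 measurement.

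Other genes of the same ribosomal cluster were not called as deposited. The genes rpl22, rps3, rpl16 and rpl14 lie one after another on the minus strand and had log2 fold changes from -0.69 to -0.39. Col-0 replicate 2 had the highest value of all libraries in rpl22 (35.0 FPKM), rps3 (47.5 FPKM), rpl16 (60.3 FPKM) and rpl14 (27.3 FPKM), and Brz-treated replicate 1 the lowest in rpl22 (10.4 FPKM), rps3 (12.3 FPKM) and rpl16 (15.7 FPKM). Corrected for the length trend, these 4 genes were called lower, with log2 fold changes of -1.32 to -1.03. The gene rpl20, outside this run and counted by 11 to 26 reads per library, was then called lower too (-0.95, adjusted p = 0.0069). As deposited it stood at -0.31 and was not called. Some members called lower with the length trend taken out are not named here.

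Among the remaining members, clpP, for the plastid-encoded subunit of the Clp protease, measured 35.7, 36.7 and 62.4 FPKM in MIR394A OE, 62.3, 84.0 and 84.8 FPKM in Brz-treated seedlings, and 46.3, 54.4 and 41.2 FPKM in Col-0. Brz-treated libraries were above Col-0 (0.69 ± 0.21, adjusted p = 0.023), and the difference was 0.13 (adjusted p = 0.49) with the length trend taken out. Leaving out Brz-treated replicate 2 (adjusted p = 0.090) or 3 (0.086) or Col-0 replicate 1 (0.054) ended the call of clpP. The gene ycf1, for a protein of the import machinery at the inner envelope, measured 13.6, 18.0 and 27.8 FPKM in MIR394A OE, 19.3, 39.4 and 36.7 FPKM in Brz-treated seedlings, and 19.0, 21.5 and 17.7 FPKM in Col-0. Brz-treated replicate 1 lay inside the Col-0 range. It was not called as deposited (0.63, adjusted p = 0.086) and was called with the length trend taken out (1.64, adjusted p = 0.013). The envelope protein gene cemA stood at 0.026, and matK, for a splicing factor, was not called.

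**Figure D4:**
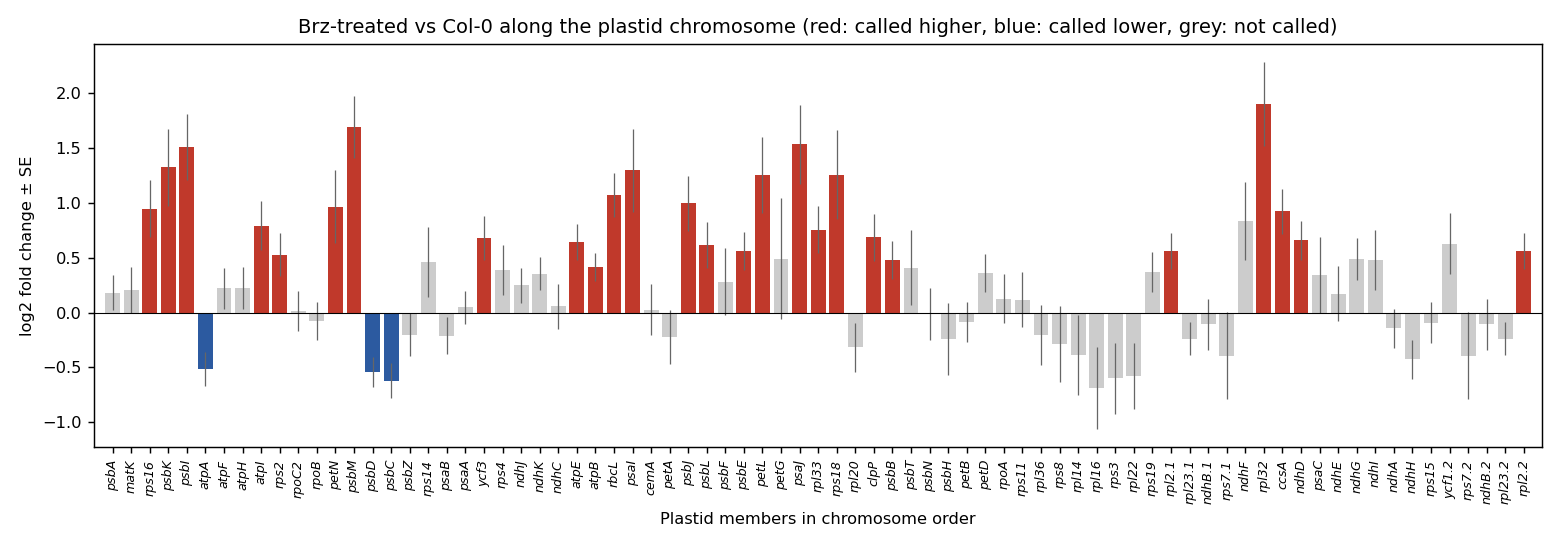
Log2 fold change (Brz-treated over untreated Col-0) with its SE for 77 placed members in their order along the plastid chromosome, on the log2(FPKM + 1) scale. Neighbours psbD and psbC are both called lower, psbK and psbI, psaJ, rpl33 and rps18, and rpl32, ccsA and ndhD are called higher, and members without colour were not called.

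Length ordered part of this pattern. Members under 300 bases were higher in 13 of 26 cases and lower in 0, with a median of 0.53, while those of at least 300 bases were higher in 13 of 54 and lower in 3, with a median of 0.12. These counts are as deposited, beside 13.2% higher and 28.7% lower over all genes. Across 75 members with distinct values (genes of shared libraries and transcripts, not replicates), Spearman's rho between coding length and log2 fold change was -0.31. Below 150 bases the median was 0.97 over 13 plastid members and 0.48 over 18 nuclear genes. Between 150 and 300 bases it was 0.36 over 12 plastid members and 0.04 over 49 nuclear genes. In the next bins the order was the other way round, with 0.17 over 21 plastid members and 0.46 over 342 nuclear genes between 300 and 600 bases, and 0.13 over 15 plastid members and 0.33 over 3870 nuclear genes between 600 and 1200 bases. Above 1200 bases it was 0.13 over 14 plastid members and -0.36 over 13251 nuclear genes. So few nuclear genes are as short as the short plastid genes that the length trend is poorly set there.

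**Figure D5:**
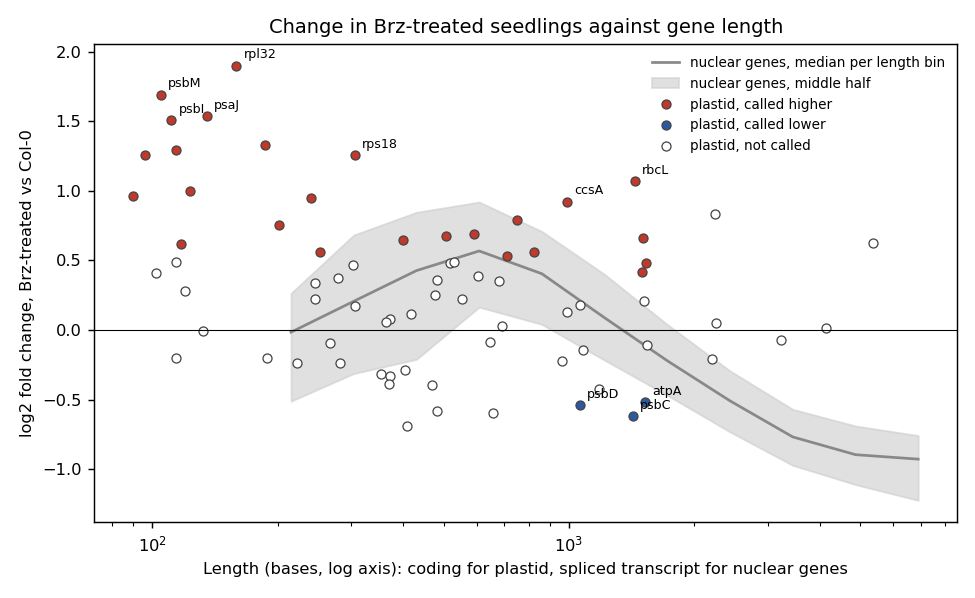
Log2 fold change (Brz-treated over untreated Col-0) by length (bases, log axis), with 75 plastid members as points and nuclear genes as the median and interquartile range per length bin of at least 15 genes. Plastid lengths are coding lengths and nuclear lengths those of the longest spliced transcript; rbcL and ccsA lie above the nuclear band and psbD and psbC below its line.

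Windows from 250 bases before to 50 bases after the start of 77 plastid coding sequences were searched on both strands for TTGACA and TATAAT, the bacterial-type elements that the plastid-encoded polymerase is known to use. TTGACA was found in 4 of 25 windows (16.0%) of members called higher in Brz-treated seedlings, against 14.3% of all windows. TATAAT was found in 9 of 25 (36%), against 44.2% of all windows. These matches describe the letters of the windows and are no binding sites, and genes inside a cluster have no promoter of their own in most cases.

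The overexpressor had 0 of 80 members called against Col-0. Over all genes 0.034% were called, and 2.27% had an unadjusted p under 0.05, as did 1 member. The median over the members was -0.12, against -0.01 over all genes, and 62 members had a negative and 18 a positive log2 fold change. Since members share libraries and transcripts, this split is no test.

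The members with the smallest p were petL, rbcL and psbH. The values of petL and rbcL are given above: petL was 0.93 ± 0.35 and rbcL 0.41 ± 0.20 higher on the log2 scale in MIR394A OE than in Col-0, each with adjusted p = 1.0. The third, psbH, a small photosystem II subunit, had 1.98, 1.24 and 0.25 FPKM in MIR394A OE, 2.22, 1.49 and 1.49 FPKM in Brz-treated seedlings, and 1.23, 1.98 and 3.95 FPKM in Col-0, from 1 to 16 reads per library. For all 3 the MIR394A OE and Col-0 libraries overlapped. Groups without overlap were found for 4 members, a share near the 5.77% of all genes.

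MIR394A OE replicate 3 differed from its group in some plastid genes, and its FPKM varied with gene length as described above. It had 216 FPKM in the shared part of rps12 and 118 FPKM in rps7, against at most 62.6 and 39.1 FPKM in MIR394A OE replicates 1 and 2, and Col-0 replicate 2 had 188 and 111 FPKM, against at most 90.7 and 57.1 FPKM in the other Col-0 libraries. With both of these libraries left out, 26 members were called in Brz-treated seedlings, 24 higher and 2 lower, and 0 in MIR394A OE against Col-0.

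MIR394A OE against Brz-treated seedlings had 1 member higher and 25 lower. Over all genes 25.8% were higher and 12% lower, 37.8% in all. The Brz-treated libraries are those of the comparison with Col-0, so the calls are not independent of those above. The members' median was -0.38, against 0.21 over all genes, and the groups did not overlap for 24 members, against 46.5% of all genes. Corrected for the length trend, 7 members were higher and 10 lower, against 9.5% and 11.3% of all genes (20.8% in all). Median-ratio scaling gave 0 higher and 34 lower, against 20.3% and 22.3% (42.6% in all). The count of 26 fell to 10 when MIR394A OE replicate 1 was left out, to 11 when Brz-treated replicate 2 was and to 10 when Brz-treated replicate 3 was. The member that was higher was psbC (0.44 ± 0.16, adjusted p = 0.047), which was not called when any 1 library of either group was left out (adjusted p up to 0.14), under the replicate block (0.076), with the length trend taken out (0.13) or with median-ratio scaling (0.45).

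Among the lower ones, psbM stood at -1.33 ± 0.28 (adjusted p = 0.0046), psbJ at -1.09 ± 0.25 (adjusted p = 0.0069) and atpE at -0.70 ± 0.17 (adjusted p = 0.0076). Without the length trend psbM was -0.99 (adjusted p = 0.021), psbJ -0.71 (adjusted p = 0.029) and atpE -0.11 (adjusted p = 0.70). The libraries of psbM, psbJ and atpE did not overlap between these groups.

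Mitochondrial rows, the other organelle genome, also had more higher than lower calls in Brz-treated seedlings. Of 52 that passed the filter, 18 were higher and 0 lower against Col-0, with a median log2 fold change of 0.33, beside 13.2% higher and 28.7% lower over all genes. With the length trend taken out 19 were higher and 0 lower, beside 13.3% and 10.6% of all genes. Coding lengths were supplied only for plastid genes, and rows without a length had only the library's median trend value taken out. For such rows this step is no length correction, so the 19 do not show that the mitochondrial calls withstand one. The count as deposited fell to 6 when Brz-treated replicate 2 was left out and to 8 when replicate 3 was. Their share of summed FPKM was 0.046 ± 0.003% in MIR394A OE, 0.079 ± 0.028% in Brz-treated seedlings and 0.044 ± 0.002% in Col-0. Whether plastid and mitochondrial rows differed was not tested.

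Nuclear genes for the partners of the plastid genes gave 25 higher and 24 lower of 97 in Brz-treated against untreated Col-0 (15 and 16 with the length trend taken out, and 27 calls in all when Brz-treated replicate 2 was left out). These are 25.8% higher and 24.7% lower, beside 13.2% and 28.7% of all genes, and with the length trend taken out 15.5% and 16.5%, beside 13.3% and 10.6%. The same shares over all genes are the background of the smaller lists that follow, some of which hold few genes. Of 6 sigma factors, which guide the plastid-encoded polymerase to promoters, 3 were lower and 0 higher (1 lower with the length trend taken out). SIG2 measured 37.0, 38.5 and 48.7 FPKM in MIR394A OE, 28.6, 14.8 and 14.5 FPKM in Brz-treated seedlings, and 43.5, 55.7 and 42.0 FPKM in Col-0, with every Brz-treated library lowest. Its log2 fold change was -1.30 ± 0.23 (adjusted p = 0.0018), and -0.93 (adjusted p = 0.0051) with the length trend taken out.

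SIG3 (-0.83 ± 0.21, adjusted p = 0.0092) and SIG5 (-0.80 ± 0.30, adjusted p = 0.049) were called as deposited and not with the length trend taken out, and SIG5 lost its call also under the replicate block (adjusted p = 0.081), with median-ratio scaling (0.067) and without Brz-treated replicate 2 (0.18) or 3 (0.16) or Col-0 replicate 1 (0.064) or 2 (0.17). SIG1, SIG4 and SIG6 had log2 fold changes of -0.87 to -0.80 and were not called, with adjusted p of 0.051, 0.074 and 0.051. Of the 3 phage-type polymerase genes, RPOTp, which acts in plastids, stood at -0.87 ± 0.19 (adjusted p = 0.0041) and RPOTm, which acts in mitochondria, at -0.71 ± 0.19 (adjusted p = 0.013). RPOTm lost its call without Brz-treated replicate 2 (adjusted p = 0.061) or 3 (0.066) or Col-0 replicate 1 (0.054). Corrected for the length trend they stood at -0.067 and 0.095, neither called, and RPOTmp, which acts in both organelles, did not pass the filter, with 0.27 to 1.08 FPKM.

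Of 12 proteins that associate with the plastid-encoded polymerase, 7 were lower and 0 higher. With the length trend taken out 2 were lower (16.7%, beside 10.6% of all genes). PAP2 averaged 1.87 FPKM in Brz-treated seedlings and 6.15 FPKM in Col-0 (-1.36 ± 0.20, adjusted p = 8.6e-04), and PAP1 4.34 FPKM in Brz-treated seedlings and 9.53 FPKM in Col-0 (-1.03 ± 0.23, adjusted p = 0.0045, and -0.34 with the length trend taken out, adjusted p = 0.071). Of 6 genes of plastid RNA decay, 5 were lower and 0 higher (2 lower with the length trend taken out). PNP, for polynucleotide phosphorylase, averaged 4.6 FPKM in Brz-treated seedlings and 12.6 FPKM in Col-0 (-1.33 ± 0.21, adjusted p = 0.0010, and -0.60 with the length trend taken out), and RNJ, for ribonuclease J, 1.05 FPKM in Brz-treated seedlings and 3.37 FPKM in Col-0 (-1.11 ± 0.19, adjusted p = 0.0013). RNJ stood at -0.36 (adjusted p = 0.039) with the length trend taken out.

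Nuclear subunits of the same complexes were higher in part. Of 28 nuclear-encoded plastid ribosomal proteins 14 were higher and 0 lower (9 and 2 with the length trend taken out). PRPL3 averaged 873 FPKM in Brz-treated seedlings and 435 FPKM in Col-0 (1.0 ± 0.14, adjusted p = 7.6e-04), and PRPL35 801 FPKM in Brz-treated seedlings and 388 FPKM in Col-0 (1.04 ± 0.15, adjusted p = 7.9e-04).

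In photosystem I, 5 of 12 nuclear subunits were higher and 3 lower, among them PSAN (1.01 ± 0.16) and PSAE1 (0.89 ± 0.14), both higher and both still called with the length trend taken out. In photosystem II, 5 of 9 were higher and 1 lower, among them PSBR (0.95 ± 0.15) and PSBW (0.83 ± 0.13), also higher under both treatments. Plastocyanin gene PETE2 was higher (0.91 ± 0.14, adjusted p = 0.0010) and PETE1 was not called (0.19). Of 3 nuclear ATP synthase subunits, ATPC1 was lower (-0.62 ± 0.13, adjusted p = 0.0039, and -0.36 with median-ratio scaling, adjusted p = 0.058) and ATPD was not called (-0.15). Of 12 nuclear NDH subunits 0 were higher and 1 lower, NDHS (-0.44 ± 0.14, adjusted p = 0.030). Its call ended with median-ratio scaling (-0.18, adjusted p = 0.27), under the replicate block (0.064) and without Brz-treated replicate 2 (0.13) or 3 (0.074) or Col-0 replicate 2 (0.12), while NDHN stood at -0.38 (adjusted p = 0.064).

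In MIR394A OE against Col-0, 0 of these 97 nuclear genes and 0 of the 52 mitochondrial rows were called.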

How the data were processed

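The authors deposited 1 table of FPKM for 27647 loci in 9 libraries, per the file headers. Libraries were made from total RNA with an mRNA library kit, per the labels' protocols, and the submitters' processing notes name Bowtie2 and HISAT. The sources used here do not give the program that computed FPKM, the genome build, the strand setting or the treatment of reads that map to several places. Reads of overlapping genes, of the inverted repeat and of plastid copies in the nuclear genome may therefore be assigned to either place. Each library's group came from its title, the only label that differs between the groups.

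The 17662 genes that reached 1 FPKM in 3 or more libraries were tested on log2(FPKM + 1) with limma 3.58.1 in R 4.3.3 (group means over all 9 libraries, intensity trend, Benjamini-Hochberg over all genes, called at adjusted p under 0.05). The added 1 makes the fold changes of low genes too small. Depth was fitted from the steps of low FPKM values after taking 36.4 bases off each length; 83.6% to 88.6% of such values lay within 0.1 of a whole read, too few to recover counts. The length alternative removed a loess trend (span 0.5) on log2 length, fitted per library on nuclear genes and held at its end values beyond their lengths. Length was that of the longest spliced transcript for nuclear genes but the coding length for plastid genes. For genes transcribed in clusters the coding length need not be that of the RNA, which limits every length-corrected plastid value. Scripts were tested on simulated data. Named genes were, per class, the most abundant member and up to 3 with the smallest p in Brz-treated against Col-0 at a mean of at least 5 FPKM, all rpo genes and the 3 with the smallest p in MIR394A OE; from nuclear lists, the 2 with the smallest p, and all sigma factors and phage-type polymerases. Other members are named to account for counts and were chosen after their values were seen. The members and lists were chosen with earlier results of these data known.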

Additional observations from a re-analysis of the deposited data

How the results depend on the processing

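The labels do not say that same-numbered libraries belong together, and they were not paired. Deviations of same-numbered libraries correlated from -0.64 to 0.15. These correlations cannot show whether such libraries shared a batch, since the deviations also carry each library's own trend with length. With the replicate number as a block, 26 members were called in Brz-treated against Col-0 (24 higher, 2 lower) and 23 in MIR394A OE against Brz (0 higher, 23 lower). The block ended the calls of rps2 (adjusted p = 0.081), atpA (0.052), psbB (0.070), SIG5 (0.081), NDHS (0.064) and RBCS2B (0.069) in that comparison, and of psbC (0.076) in MIR394A OE against Brz and changed no other call of a single gene. In Brz-treated against Col-0, testing without a filter ended the calls of petN (adjusted p = 0.071), rps18 (0.062), rps2 (0.073), psbB (0.061), psbL (0.052), SIG5 (0.090) and RBCS2B (0.10). Nuclear rows scaled to equal sums ended those of atpB (0.070), rps2 (0.11), psbB (0.13), psbE (0.063) and psbL (0.069), and gave calls to SIG1 (0.025), SIG4 (0.037), SIG6 (0.025), NDHN (0.020) and RBCS1A (0.0091), all lower. With only these groups in the fit rps2 (0.052) and psbB (0.069) lost theirs, and ndhK (0.043), SIG1 (0.038) and SIG6 (0.046) gained one. Leaving out Brz-treated replicate 1 gave calls to rps19 (0.037), ycf1 (0.012) and PETE1 (0.049), all higher. It also gave calls to SIG1 (0.011), SIG6 (0.0031) and NDHN (0.016), all lower. Leaving out Col-0 replicate 3 gave calls to SIG1 (0.032) and SIG4 (0.038), both lower. Without an intensity trend SIG5 (0.054) and RBCS2B (0.057) lost theirs, as did SIG5 with a pseudocount of 5 (0.055) and rps2 with one of 0.1 (0.050108). In MIR394A OE against Brz psbC lost its call without a filter (0.067), without an intensity trend (0.070) and with a pseudocount of 5 (0.051).

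Members called in Brz-treated against Col-0 numbered 29, with 25 to 32 under other pseudocounts, filters, scalings, no intensity trend or only the groups compared, 16 among members of at least 300 bases, and 9 to 36 with a library left out (14 to 36, with 19 without Col-0 replicate 3, when the length trend was removed as well). In MIR394A OE against Brz they numbered 26, with 17 when the length trend was removed, 15 among members of at least 300 bases, and 10 to 36 with a library left out (3 to 29, with 4 without MIR394A OE replicate 2 or Brz replicate 3, when the trend was removed as well). The members' median moved to 0.48 with median-ratio scaling and to -0.12 with the length trend removed in Brz-treated against Col-0, and to -0.0093 with the trend removed in MIR394A OE against Brz. In MIR394A OE against Col-0, 0 members were called under every alternative run.

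Mitochondrial calls in Brz-treated against Col-0 were 9 with a filter at 5 FPKM and 6 to 26 with a library left out. In MIR394A OE against Brz they were 11, with 17 under median-ratio scaling, 6 with nuclear rows scaled to equal sums, 5 with a filter at 5 FPKM, 7 with only these groups in the fit, and 5 to 24 with a library left out. Nuclear partner calls were 31 with the length trend removed, and 27 to 54 with a library left out, in Brz-treated against Col-0, and 26 with the trend removed in MIR394A OE against Brz. The plastid share without rows under 300 bases was 1.08%, 1.41% and 1.14%, and without psbM and rpl32 1.22%, 1.63% and 1.29%, in MIR394A OE, Brz-treated seedlings and Col-0.

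Log2 fold changes that turned sign in Brz-treated seedlings over Col-0 follow. With nuclear rows scaled to equal sums these were ndhC (-0.087), rpoA (-0.0071), cemA (-0.096), rpoC2 (-0.060) and psaA (-0.030), and with median-ratio scaling rpoB (0.078) and ATPD (0.11). With the length trend removed they were ndhK (-0.14), ndhJ (-0.37), ndhC (-0.58), rpoA (-0.14), rps19 (-0.25), cemA (-0.46), rpoB (0.64), psaB (0.22), psbE (-0.037), atpF (-0.36), atpH (-0.37), RPOTm (0.095) and PETE1 (-0.036). Of these, psbE and RPOTm were called as deposited. With MIR394A OE replicate 3 and Col-0 replicate 2 both left out, rpoB was 0.053 and rpl14 0.00041. With a library left out, rpoB ran from -0.16 to 0.053, cemA from -0.071 to 0.15, rpoA from -0.019 to 0.26, ndhC from -0.069 to 0.23, rpoC2 from -0.063 to 0.077, psaA from -0.050 to 0.10, rpl14 from -0.68 to 0.00041 and psbH from -0.50 to 0.074. The cause was not tested. Single-gene alternatives cover the genes whose fold change is given in that comparison, except rpl20. The length correction, the counts for mitochondrial and nuclear rows and the share without psbM and rpl32 were chosen with the data known. With 3 libraries per group and genes of 0 to 16 reads, differences in petL, psbH, petG, psaC, rps16, rpl36 and ndhE were at the limit of this depth.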
